A study of Homo sapiens with 6 samples.

Results

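Argonaute, Dicer and the other core genes of small RNA silencing were followed in the established line NCI-H1975, which derives from a human lung adenocarcinoma, by bulk sequencing of polyadenylated RNA. The 10 genes were taken by symbol, through their Ensembl identifiers, from a deposited table of 60960 features, and all 10 were found. They were AGO1, AGO2, AGO3, AGO4, DICER1, DROSHA, DGCR8, XPO5, TARBP2 and PRKRA. The cells carried a small interfering RNA against GFPT2, the label siGFPT2 (n = 3 libraries), or a control small interfering RNA, the label siNC (n = 3 libraries). All 6 libraries therefore come from cells given a small RNA that uses this machinery, and no untransfected library was analysed. The extraction text shared by all 6 labels also speaks of almonertinib, EGF and an EGFR knockdown, but the treatment label of each library gives only siGFPT2 or siNC. The labels do not say that the replicates were separate cultures, so p-values measure the spread between these libraries, which may be technical. The question put to the data was whether gene expression differs between the 2 groups.

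MicroRNAs are made in steps. In the nucleus the Microprocessor, the RNase DROSHA bound to its RNA-binding partner DGCR8, cuts the hairpin out of the primary transcript, and XPO5 (exportin-5) carries it to the cytoplasm. There DICER1, with TARBP2 (TRBP) or PRKRA (PACT), cuts the hairpin to a short duplex, and 1 strand is loaded into an Argonaute protein. A synthetic small interfering RNA enters at the loading step, and among the human Argonautes AGO2 is the one best known for cutting a fully matched target.

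Levels are in FPKM, in which the fragments of a gene are scaled by its length and by the depth of the library. Levels of different genes can be set side by side as far as that length is the length of the transcripts present. Depth was 21899321 to 27234880 counted fragments per library, and 12896 features that averaged 1 FPKM or more were tested. Of the 10 lung adenocarcinoma markers 8 averaged at least 1 FPKM, and NAPSA and SFTPB, of differentiated alveolar cells, did not. Summed levels of the markers were 1540 to 1930 FPKM in siGFPT2 and 1490 to 2130 FPKM in siNC. Fibroblast markers summed to 9.81 to 14.5 FPKM in siGFPT2 and 9.73 to 11.7 FPKM in siNC, and endothelial markers to 0.256 to 0.405 FPKM in siGFPT2 and 0.232 to 0.276 FPKM in siNC. The targeted gene stood at 8.94, 7.58 and 8.72 FPKM in siGFPT2 replicates 1, 2 and 3, against 10.1, 9.31 and 8.29 FPKM in siNC replicates 1, 2 and 3. The 2 groups overlapped for GFPT2 (log2 fold change -0.13, 95% interval -0.43 to 0.17, limma adjusted p = 0.9999; exact two-sided permutation p = 0.4, where 0.1 is the smallest possible), so its level does not separate the labels. siGFPT2 replicate 2 and siNC replicate 3 stood apart from the other 4 libraries. Their length slopes, the change of log2 level for each doubling of gene length relative to the mean of all libraries, were -0.055 and -0.081, against 0.027 to 0.048 in the others. Ribosomal protein genes summed to 25710 FPKM in siGFPT2 replicate 2 and to 29160 FPKM in siNC replicate 3, against 16640 to 18840 FPKM in the others. In bulk samples like these, fewer cells of a type and less RNA per cell cannot be told apart.

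AGO4, AGO1 and AGO3 lie in this order on the plus strand of chromosome 1 (35808172 to 35857890, 35869808 to 35930528 and 35930718 to 36072500, GENCODE 29 on GRCh38). AGO4 over AGO1 spanned 0.304 on the log2 scale over the libraries, and AGO3 over AGO1 spanned 0.932. AGO1 and AGO4 followed AGO2, which is not a neighbour, more closely than each other, with spans of 0.167 and 0.244. The source of the windows held none for AGO2. Whether position or promoter bears on these levels was not tested. The promoter windows of the 3 neighbours are shown, with that of DICER1, the gene that varied most. Each covers 250 bases before and 50 bases after a start site in RefSeq (GRCh38.p14), 5′ to 3′ on the strand of the gene. The AGO1 start in RefSeq lies inside the longer GENCODE 29 gene. The windows are chr1:35807766-35808065 for AGO4, chr1:35882959-35883258 for AGO1, chr1:35930855-35931154 for AGO3 and, on the minus strand, chr14:95157480-95157779 for DICER1, the first of the 5 that the table lists. Capitals mark the motifs searched on both strands.
AGO4: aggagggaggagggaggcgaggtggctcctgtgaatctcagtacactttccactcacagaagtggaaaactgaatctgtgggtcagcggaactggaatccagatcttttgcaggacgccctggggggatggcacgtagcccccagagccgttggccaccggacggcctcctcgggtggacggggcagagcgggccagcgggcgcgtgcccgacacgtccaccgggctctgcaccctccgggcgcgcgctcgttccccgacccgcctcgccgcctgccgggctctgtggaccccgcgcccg
AGO1: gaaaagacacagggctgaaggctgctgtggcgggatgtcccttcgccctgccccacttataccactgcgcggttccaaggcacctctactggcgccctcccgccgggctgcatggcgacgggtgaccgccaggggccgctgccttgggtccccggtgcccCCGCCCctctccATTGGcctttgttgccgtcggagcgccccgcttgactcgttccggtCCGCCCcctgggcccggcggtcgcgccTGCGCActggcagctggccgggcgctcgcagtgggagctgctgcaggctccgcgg
AGO3: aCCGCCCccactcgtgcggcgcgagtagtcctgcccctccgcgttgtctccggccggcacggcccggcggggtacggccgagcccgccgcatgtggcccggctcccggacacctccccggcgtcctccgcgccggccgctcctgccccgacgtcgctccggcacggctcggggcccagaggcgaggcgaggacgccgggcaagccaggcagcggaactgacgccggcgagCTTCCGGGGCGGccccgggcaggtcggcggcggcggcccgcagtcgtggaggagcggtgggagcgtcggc
DICER1: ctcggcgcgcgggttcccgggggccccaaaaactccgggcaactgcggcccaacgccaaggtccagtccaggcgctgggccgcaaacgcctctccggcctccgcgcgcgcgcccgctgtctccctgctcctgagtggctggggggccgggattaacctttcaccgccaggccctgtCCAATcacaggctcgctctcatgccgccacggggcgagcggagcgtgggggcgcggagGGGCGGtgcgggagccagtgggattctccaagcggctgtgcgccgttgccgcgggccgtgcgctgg
The search covered the GC box (GGGCGG), the CCAAT box (CCAAT), the TATA box (TATAAA), an NRF1 core (TGCGCA), an ETS core (CCGGAAG) and the E box (CACGTG). AGO1 held 2 GC boxes, 1 CCAAT box and 1 NRF1 core. AGO3 held 2 GC boxes and 1 ETS core, which shares a base with the second GC box, and no CCAAT box. The AGO4 window held none of the 6 motifs, and that of DICER1 held 1 GC box and 1 CCAAT box. Of all 35116 windows of this length, 45% held a GC box, 34.6% a CCAAT box, 11.5% a TATA box, 10.3% an ETS core, 8.24% an NRF1 core and 7.26% an E box. CG dinucleotides numbered 29 in the AGO4 window, 30 in AGO1, 50 in AGO3 and 37 in DICER1, against a median of 14. A match describes letters in a window and is not evidence of a bound factor.

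Apart from AGO2, which was not searched, a pair of the genes also host microRNAs. The mature sequences of these microRNAs (RefSeq, GRCh38.p14) are shown. Whether they are made in these cells was not measured. MIR3618 and MIR1306 overlap exons of DGCR8 on chromosome 22, and MIR3173 lies in an intron of DICER1 on chromosome 14. Capitals mark the seed, bases 2 to 8, with which a microRNA pairs to its targets.
hsa-miR-3618: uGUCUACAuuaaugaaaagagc
hsa-miR-1306-5p: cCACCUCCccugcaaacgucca
hsa-miR-1306-3p: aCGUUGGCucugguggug
hsa-miR-3173-5p: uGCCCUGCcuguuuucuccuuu
hsa-miR-3173-3p: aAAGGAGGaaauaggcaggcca
The 5 seeds differ from each other. The features MIR3618 and MIR1306 were listed at 0 in all 6 libraries, and MIR3173 at 0 to 0.647 FPKM. The libraries were made from polyadenylated RNA and do not measure mature microRNAs, and how fragments shared with the host gene were counted is not given in the sources used here.

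No gene of the silencing machinery passed the test for a difference between siGFPT2 and siNC. Of the 10 genes 9 passed the filter on low values and were tested, and AGO3, at a mean of 0.754 FPKM, did not. By limma 0 of the 9 passed an adjusted p of 0.05, where 0% of the 12896 tested features did, and 0 had an unadjusted p under 0.05, where 0.651% of features did. That share lies far under the threshold itself, so 0 of 9 does not show that the groups are alike. With the length slope in the model 704 features had an unadjusted p under 0.05 by limma. Without siGFPT2 replicate 2 and siNC replicate 3 the number was 751. For 0 of the 10 genes did the groups fail to overlap, against 3.53% of tested features. Of the 9 fold changes 6 lay above 0 and 3 below, with a median of 0.04 on the log2 scale, beside 61.4% above 0 and a median of 0.03 over all tested features. Over 17 other fits no gene of the set reached an unadjusted p under 0.05 in limma or limma-voom, and the smallest was 0.0581.

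**Figure D1:**
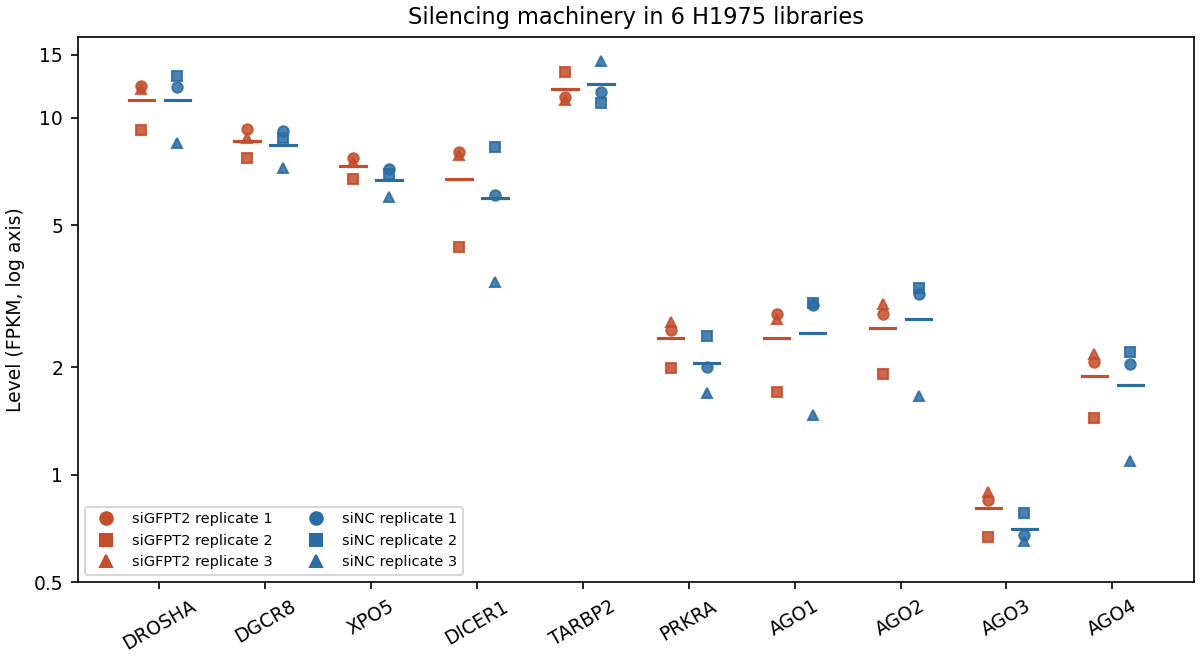
FPKM of the 10 genes on a log axis in siGFPT2 (orange, left of each pair) and siNC (blue, right), with circles, squares and triangles for replicates 1, 2 and 3 and bars for group means (n = 3 each). The groups overlap for every gene, and levels run from 0.652 FPKM for AGO3 in siNC replicate 3 to 14.5 FPKM for TARBP2 in the same library.

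By FPKM, transcripts of the nuclear step were among the more abundant of the set. DROSHA (ENSG00000113360; chromosome 5, 31400497 to 31532196, minus strand), the nuclease, stood at 12.3, 9.22 and 12.1 FPKM in siGFPT2 replicates 1, 2 and 3, against 12.2, 13.1 and 8.49 FPKM in siNC replicates 1, 2 and 3. Both groups held 1 low library, siGFPT2 replicate 2 and siNC replicate 3, and otherwise overlapped. The group means were 11.2 ± 1.71 FPKM in siGFPT2 and 11.2 ± 2.42 FPKM in siNC (SD, n = 3 each), a log2 fold change of 0.01 ± 0.20 (SE; 95% interval -0.47 to 0.48). Without both low libraries it was -0.05 (95% interval -0.25 to 0.15), and its sign was also negative with median centring (-0.05) and quantile normalization (-0.03). Its partner DGCR8 (ENSG00000128191; chromosome 22, 20080232 to 20111877, plus strand), which recognises the hairpin, measured 9.32, 7.74 and 8.76 FPKM in siGFPT2, against 9.19, 8.76 and 7.22 FPKM in siNC. The spread of DGCR8 was the smaller of the pair, at 1.29-fold between the highest and lowest library against 1.54-fold for DROSHA. Its log2 fold change was 0.04 (95% interval -0.29 to 0.37), and -0.01 with median centring. XPO5 (ENSG00000124571; chromosome 6, 43522330 to 43576075, minus strand), the export receptor, was 7.72, 6.75 and 7.50 FPKM in siGFPT2, against 7.19, 6.95 and 6.0 FPKM in siNC. It had the smallest SE of the tested genes, 0.12, around a log2 fold change of 0.12 (95% interval -0.16 to 0.41), and the interval holds changes from 0.893-fold to 1.33-fold. With the length slope in the model the XPO5 value was 0.13 (-0.01 to 0.26, limma unadjusted p = 0.0616, adjusted p = 0.6945). Exons of XPO5 share 348 bases, 4.08% of their length, with POLR1C on the opposite strand, which averaged 3.82 FPKM, and the labels do not say whether counting used strand.

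DICER1 had the widest spread of the 10 genes. DICER1 (ENSG00000100697; chromosome 14, 95086228 to 95158010, minus strand), the cytoplasmic nuclease that cuts hairpins to duplexes, was 8.02, 4.34 and 7.86 FPKM in siGFPT2, against 6.09, 8.31 and 3.47 FPKM in siNC. siNC replicate 3 was lowest, siGFPT2 replicate 2 next and siNC replicate 1 after it, and the highest library held 2.39 times the lowest. Of the tested features 7.31% had a range at least as wide as that of DICER1. The log2 fold change was 0.21 ± 0.37 (SE; 95% interval -0.66 to 1.08, limma adjusted p = 0.9999). The interval holds changes from 0.631-fold to 2.12-fold, so the values do not settle the direction. Without siNC replicate 3 the value was -0.13, without siGFPT2 replicate 2 it was 0.50, without siNC replicate 2 it was 0.49, without siGFPT2 replicate 1 it was 0.06, and without siGFPT2 replicate 3 it was 0.07. Without both low libraries it was 0.16 (95% interval -0.21 to 0.52). With the length slope in the model it was 0.22 (-0.02 to 0.45, limma unadjusted p = 0.0686, adjusted p = 0.6945). DICER1 rested on 1078 to 2310 fragments per library, so counting error is small beside this spread. The antisense gene DICER1-AS1 shares 80 exonic bases with it and averaged 2.00 FPKM.

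The RNA-binding partners of DICER1 ran in opposite directions over the libraries. TARBP2 (ENSG00000139546; chromosome 12, 53500921 to 53506431, plus strand) was 11.5, 13.5 and 11.2 FPKM in siGFPT2, against 11.8, 11.0 and 14.5 FPKM in siNC. It was highest in siNC replicate 3 and siGFPT2 replicate 2, the libraries in which each of the other 9 genes held its 2 lowest values. Its log2 fold change was -0.04 (95% interval -0.38 to 0.30), and -0.01 without both of those libraries. PRKRA (ENSG00000180228; chromosome 2, 178431414 to 178451512, minus strand), which also activates the double-stranded RNA kinase PKR, was 2.54, 2.00 and 2.69 FPKM in siGFPT2, against 2.00, 2.45 and 1.70 FPKM in siNC. The group means were 2.41 ± 0.364 FPKM in siGFPT2 and 2.05 ± 0.377 FPKM in siNC (SD, n = 3 each), with overlap. The log2 fold change of 0.23 (95% interval -0.22 to 0.68; limma unadjusted p = 0.271, adjusted p = 0.9999) was the furthest from 0 among the tested genes. It was 0.23 (-0.12 to 0.58) without siGFPT2 replicate 2 and siNC replicate 3, and 0.23 when the length slope entered the model, where its unadjusted p of 0.0581 was the smallest of any of the genes in any fit (adjusted p = 0.6945). Single libraries moved it more: it was 0.105 without siNC replicate 3, 0.146 without siGFPT2 replicate 3, 0.351 without siGFPT2 replicate 2 and 0.357 without siNC replicate 2.

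The level of PRKRA depends on the gene length behind its FPKM. The steps of the FPKM values give whole fragments for PRKRA at a length of 12061 bases, 3.06 times its exon length in GENCODE 29, 3941 bases. For the other 9 genes the 2 lengths differed by at most 3.14%. With the same fragments, the shorter length would put PRKRA higher. Its levels would be 7.37 ± 1.11 FPKM in siGFPT2 and 6.27 ± 1.16 FPKM in siNC (SD, n = 3 each). PRKRA would then rank 4 or 5 of the 10 genes in each library, in place of 6 to 9. The fragments, 697, 656 and 719 in siGFPT2 and 534, 647 and 502 in siNC, were recovered at 12061 bases. Some may lie outside the shorter length, so the levels at that length could be lower. Comparisons of PRKRA between libraries do not turn on the length while the fragments are kept, but comparisons with other genes do.

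Argonautes were at lower FPKM than DROSHA, DGCR8, XPO5, DICER1 and TARBP2. The order depends on the lengths used. In siGFPT2 replicate 1 AGO2 had 1018 fragments over 15847 bases, TARBP2 1064 over 4090 and DICER1 2310 over 12680. Whether the transcripts present have these lengths was not measured. AGO2 (ENSG00000123908; chromosome 8, 140520156 to 140635619, minus strand), the slicing Argonaute, was 2.83, 1.91 and 3.00 FPKM in siGFPT2, against 3.22, 3.33 and 1.67 FPKM in siNC. AGO1 (ENSG00000092847) was 2.82, 1.70 and 2.72 FPKM in siGFPT2, against 2.99, 3.02 and 1.47 FPKM in siNC. AGO4 (ENSG00000134698) was 2.06, 1.44 and 2.19 FPKM in siGFPT2, against 2.04, 2.21 and 1.10 FPKM in siNC. All 3 were lowest in siNC replicate 3 and next lowest in siGFPT2 replicate 2, with highest-to-lowest ratios of 2.00 for AGO2, 2.06 for AGO1 and 2.02 for AGO4. AGO3 (ENSG00000126070) was 0.849, 0.668 and 0.897 FPKM in siGFPT2, against 0.678, 0.781 and 0.652 FPKM in siNC, a ratio of 1.37. AGO3 has the longest exons of the family, 21153 bases in the table, and rested on 317 to 421 fragments per library. The log2 fold changes were -0.01 for AGO1 (95% interval -0.79 to 0.77), -0.05 for AGO2 (-0.77 to 0.68) and 0.12 for AGO4 (-0.58 to 0.83), and in a fit with no filter on low values 0.17 for AGO3 (-0.31 to 0.64). Without siGFPT2 replicate 2 and siNC replicate 3, AGO1 had -0.11 (-0.38 to 0.16), AGO2 -0.16 (-0.43 to 0.10) and AGO4 0.00 (-0.32 to 0.32). Without siNC replicate 3 alone, the values were -0.34 for AGO1, -0.36 for AGO2 and -0.18 for AGO4, and without siGFPT2 replicate 2 alone 0.21, 0.15 and 0.30.

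**Figure D2:**
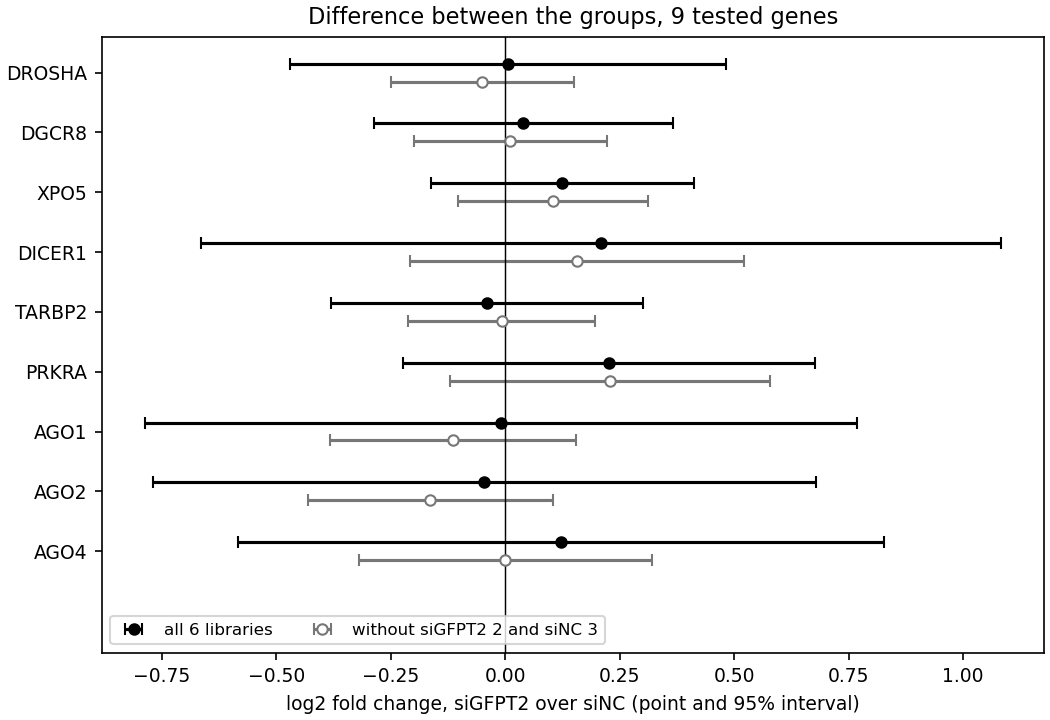
Log2 fold changes of siGFPT2 over siNC on the log2(FPKM + 0.1) scale for the 9 tested genes, as points with 95% intervals, from all 6 libraries (filled) and without siGFPT2 replicate 2 and siNC replicate 3 (open). Every interval holds 0, and the widest, that of DICER1, runs from -0.66 to 1.08 with all libraries.

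Ordered by their mean over the 6 libraries, the levels were 12.2 FPKM for TARBP2, 11.2 for DROSHA, 8.50 for DGCR8, 7.02 for XPO5, 6.35 for DICER1, 2.66 for AGO2, 2.46 for AGO1, 2.23 for PRKRA, 1.84 for AGO4 and 0.754 for AGO3. Some neighbours in this order changed places between libraries. TARBP2 was above DROSHA in 2 of 6 libraries, siGFPT2 replicate 2 and siNC replicate 3. XPO5 was above DICER1 in 3 of 6, AGO1 above PRKRA in 4 and PRKRA above AGO4 in 5. The remaining neighbours kept their order in all 6 libraries: DROSHA above DGCR8, DGCR8 above XPO5, DICER1 above AGO2, AGO2 above AGO1 and AGO4 above AGO3. AGO1 and AGO2 were nonetheless close, with AGO1 at 0.882 to 0.997 of AGO2 in the 6 libraries. The median over all tested features was 5.42 FPKM, and TARBP2 and DROSHA lay at percentiles 73.0 and 71.1 of mean level, and AGO2, AGO1 and AGO4 at percentiles 28.3, 26.0 and 17.5. The genes of the PIWI branch of the family, which act in the germ line, were at or near 0 in the table. PIWIL3 had 0 fragments in all 6 libraries and PIWIL1 1 fragment in all, while PIWIL2 and PIWIL4 stood at 0.038 to 0.080 and 0.073 to 0.162 FPKM.

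AGO1, AGO2 and AGO4 held nearly steady proportions to each other while their levels moved. The summed level of all 4 Argonautes was 8.56, 5.72 and 8.80 FPKM in siGFPT2 replicates 1, 2 and 3, against 8.93, 9.35 and 4.88 FPKM in siNC replicates 1, 2 and 3. Of that sum, AGO1 made up 29.7% to 33.5%, AGO2 33.0% to 36.0%, AGO4 22.4% to 25.1% and AGO3 7.59% to 13.4%. AGO1 over AGO2 spanned 0.17 on the log2 scale over the libraries, although AGO1 itself spanned 0.99 and AGO2 0.96. AGO3 was the exception. AGO3 over AGO2 was 0.300, 0.349 and 0.299 in siGFPT2, against 0.211, 0.234 and 0.391 in siNC, and its share was largest in siNC replicate 3 and siGFPT2 replicate 2. Steady proportions to AGO2 were not particular to the family. MFHAS1, HK2 and SSH1, described below, followed AGO2 more closely than AGO1 or AGO4 did.

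AGO4 over AGO2 was the only 1 of the 8 ratios in which the groups did not overlap, 12.5% of them. It was 0.730, 0.752 and 0.728 in siGFPT2, against 0.635, 0.662 and 0.657 in siNC, higher in each siGFPT2 library than in any siNC library. The log2 difference, on FPKM + 0.1, was 0.17 (log2 ratio -0.42 ± 0.029 in siGFPT2 and -0.59 ± 0.036 in siNC, SD, n = 3 each). The exact two-sided permutation p was 0.1, the smallest that 3 against 3 libraries allow, and 0.686 after Benjamini-Hochberg adjustment over the 8 ratios. The SD within a group was below the counting error of 1 library, which was 0.087 to 0.117 on the log2 scale, so the closeness of the replicates is not a measure of precision here. AGO4 rested on 199 to 360 fragments per library and AGO2 on 647 to 1157. Leaving out 1 library gave differences of 0.15 to 0.18. Among all 45 pairs of the 10 genes, a count made after the values were seen, 2 had ratios that did not overlap between the groups (4.44%), AGO2 with AGO4 and DROSHA with PRKRA.

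The other 7 of the 8 ratios overlapped between the groups. AGO1 over AGO2 differed by 0.04 on the log2 scale (exact permutation p = 0.6), AGO4 over AGO1 by 0.13 (p = 0.2, exact), AGO3 over AGO2 by 0.21 (p = 0.5, exact) and AGO3 over AGO1 by 0.17 (p = 0.6, exact). DGCR8 over DROSHA, the Microprocessor pair, was 0.758, 0.839 and 0.727 in siGFPT2, against 0.754, 0.671 and 0.850 in siNC. Its log2 difference was 0.03 (exact permutation p = 0.9). DICER1 over DROSHA, the cytoplasmic over the nuclear nuclease, was 0.652, 0.471 and 0.652 in siGFPT2, against 0.5, 0.636 and 0.409 in siNC, with a log2 difference of 0.20 (exact permutation p = 0.5). TARBP2 over PRKRA ran from 4.18 in siGFPT2 replicate 3 to 8.51 in siNC replicate 3. With the same fragments over the GENCODE 29 length of PRKRA it ran from 1.36 to 2.78. The log2 difference was -0.27 (exact permutation p = 0.6). After adjustment over the 8 ratios the p-values of these 7 were 0.686 or 0.9. Single libraries moved several of these differences. Without siNC replicate 3 the log2 difference was 0.48 for AGO3 over AGO2, 0.46 for AGO3 over AGO1, -0.03 for TARBP2 over PRKRA and 0.05 for DICER1 over DROSHA. Without siNC replicate 1 it was 0.05 for AGO3 over AGO2 and -0.01 for AGO3 over AGO1. Without siNC replicate 2 it was -0.48 for TARBP2 over PRKRA and 0.36 for DICER1 over DROSHA, and without siGFPT2 replicate 2 it was -0.47 and 0.36.

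**Figure D3:**
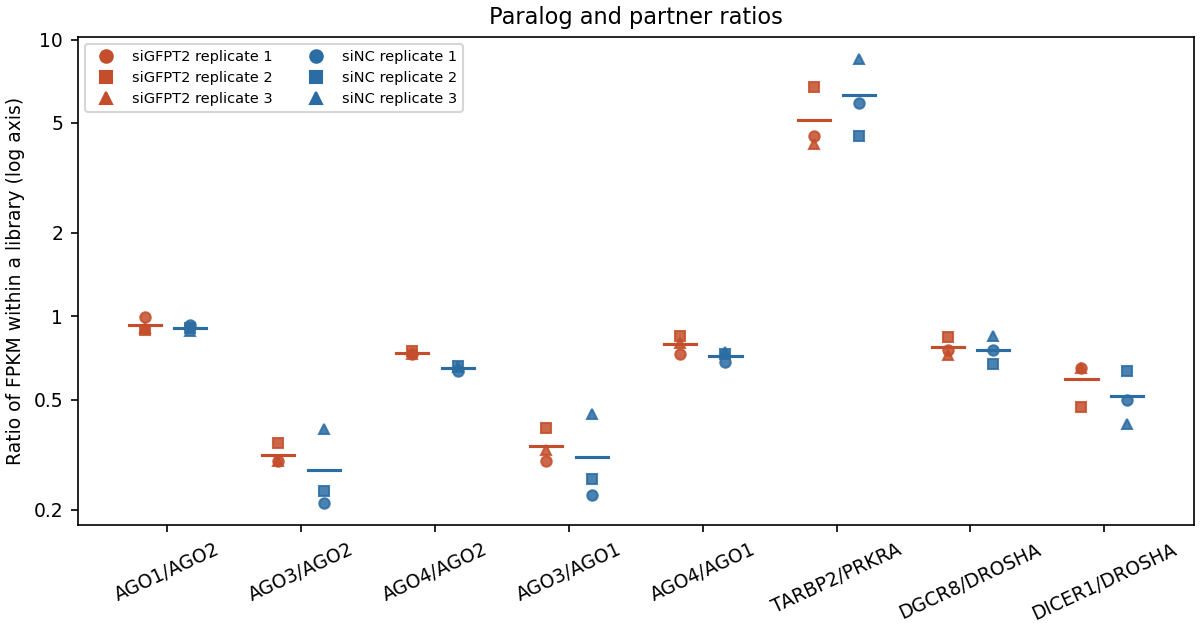
Ratios of FPKM of 2 genes within a library, on a log axis, in siGFPT2 (orange, left of each pair) and siNC (blue, right), with circles, squares and triangles for replicates 1, 2 and 3 and bars for group means. AGO1/AGO2 stays between 0.882 and 0.997, and AGO4/AGO2 is the ratio whose groups do not overlap, at 0.728 to 0.752 in siGFPT2 and 0.635 to 0.662 in siNC.

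Libraries of the same group differed from each other in a pattern that most of the genes shared. Of the 10 genes 9 were lower in siGFPT2 replicate 2 and siNC replicate 3 than in each of the other 4 libraries, and 1, TARBP2, was higher. Of all tested features 35.4% were lower in both of these libraries and 29.8% higher. In siNC replicate 3 the deviation from the own mean over the 6 libraries was -0.78 for DICER1, -0.66 for AGO4, -0.65 for AGO1, -0.60 for AGO2, -0.38 for DROSHA and -0.36 for PRKRA on the log2 scale. DGCR8, XPO5 and AGO3 deviated by -0.23, -0.22 and -0.17, and TARBP2 by 0.25. In siGFPT2 replicate 2 the same genes kept their sign with smaller values, of -0.47 for DICER1, -0.45 for AGO1 and -0.41 for AGO2, and 0.145 for TARBP2.

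Gene length moved with this pattern over the whole table. Among 1400 tested features of at least 10000 bases, 74.5% were lower in these 2 libraries than in each of the others and 7.43% higher. Among the 2579 features under 2000 bases, 12.8% were lower and 48.0% higher. AGO1, AGO2, DICER1 and PRKRA have lengths of 12061 to 15847 bases in the table, AGO4, DROSHA, DGCR8 and XPO5 7315 to 8481, and TARBP2 has 4090, the only one under 5000 in the table. PRKRA, low in both libraries, would also be under 5000 at its GENCODE 29 exon length. AGO3 is longer than all of these and deviated the least among the 9 in siNC replicate 3. The part of length, of the ribosomal protein level and of the 2 libraries in the values of single genes was not tested.

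**Figure D4:**
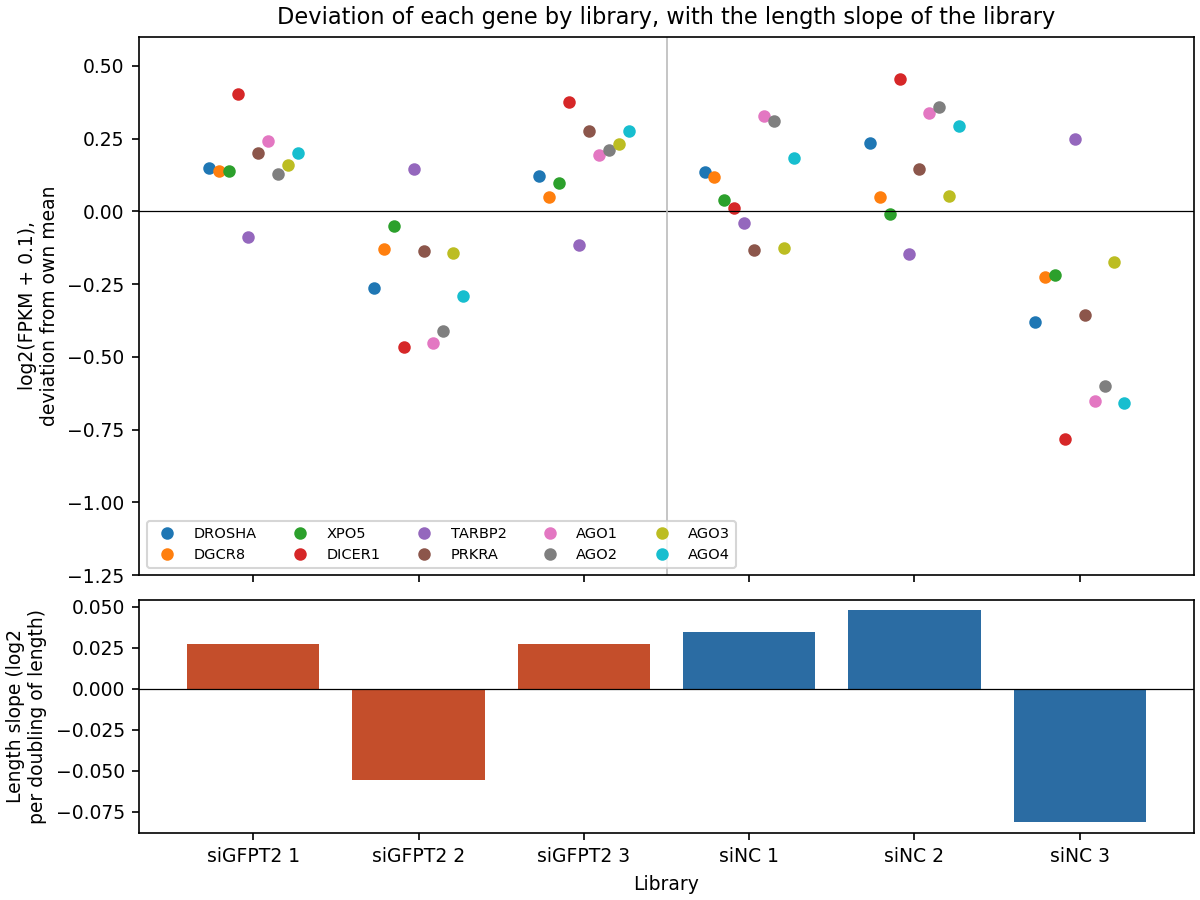
Upper panel, the deviation of log2(FPKM + 0.1) from each gene's own mean over the 6 libraries (siGFPT2 left of the grey line, siNC right). Lower panel, the length slope of each library in log2 per doubling of gene length, -0.055 in siGFPT2 2 and -0.081 in siNC 3, the libraries where 9 of the 10 genes have their lowest values and TARBP2 its highest.

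Features with a profile like that of AGO2 and DICER1 were looked for among those with at least their range over the 6 libraries, by the mean absolute difference of the deviations. For AGO2 the nearest of 2017 were MFHAS1 (0.024 on the log2 scale), the hexokinase gene HK2 (0.028) and SSH1 (0.028). AGO1 stood at 0.044 and AGO4 at 0.084. HK2 was 25.9, 16.7 and 25.9 FPKM in siGFPT2, against 28.1, 28.6 and 14.4 FPKM in siNC, the order of libraries seen for AGO2. For DICER1 the nearest of 942 were PAN3 (0.022), CAMSAP2 (0.033) and KNL1 (0.038). PAN3, a subunit of a deadenylase that acts on microRNA targets, was 2.07, 1.11 and 1.96 FPKM in siGFPT2, against 1.54, 2.11 and 0.829 FPKM in siNC. These likenesses rest on 6 libraries that share the length pattern.

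The genes around the core machinery also gave 0 calls by limma, where 0% of all tested features passed, and 0 with an unadjusted p under 0.05. The genes named here had the smallest p of their list, a choice that favours groups without overlap. Over all tested features the groups did not overlap in 3.53%, and this was not counted over the lists. Of 19 cofactors of the Microprocessor and of nuclear export, 12 had fold changes above 0, with a median of 0.03. DDX5, a helicase of the Microprocessor, was 53.3, 51.3 and 54.6 FPKM in siGFPT2, against 46.6, 50.6 and 47.0 FPKM in siNC, without overlap (log2 0.14, 95% interval -0.09 to 0.37). PHAX, an adaptor for the export of small nuclear RNA, had 0.18 (-0.10 to 0.46). In this list 7 genes were lower in both siGFPT2 replicate 2 and siNC replicate 3 than in the other 4 libraries, and 8 were higher.

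Of 17 genes for the loading of Argonaute and the removal of the passenger strand, 13 had fold changes above 0, with a median of 0.07. TSN, a subunit of the nuclease that clears the passenger strand, was 13.3, 13.6 and 13.6 FPKM in siGFPT2, against 11.8, 13.2 and 12.8 FPKM in siNC. Its groups did not overlap by a narrow margin (log2 0.10, -0.14 to 0.33). CLP1, an RNA kinase that can phosphorylate small interfering RNAs, had 0.15 (-0.15 to 0.44). Of the 17 genes 3 were lower in both siGFPT2 replicate 2 and siNC replicate 3 than in the other 4 libraries, and 9 were higher.

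Of 27 tested genes of target silencing and deadenylation, out of 28, 25 had fold changes above 0, with a median of 0.06. The genes with the smallest p, CNOT9 and DCP2, had 0.10 (-0.16 to 0.36) and 0.14 (-0.29 to 0.57). CNOT9 is a subunit of the CCR4-NOT deadenylase and DCP2 the decapping enzyme. Of the 27 genes 21 were lower in both siGFPT2 replicate 2 and siNC replicate 3 than in the other 4 libraries, and 1 was higher.

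Of 12 tested genes of microRNA tailing, trimming and turnover, 10 had fold changes above 0, with a median of 0.07. PNPT1, the mitochondrial polynucleotide phosphorylase, was 6.58, 6.18 and 6.69 FPKM in siGFPT2, against 5.17, 6.0 and 6.03 FPKM in siNC, without overlap (log2 0.18, -0.09 to 0.45). PARN, a trimming exonuclease, had 0.12 (-0.13 to 0.37). Of the 12 genes 7 were lower in both siGFPT2 replicate 2 and siNC replicate 3 than in the other 4 libraries, and 1 was higher. LIN28A and LIN28B, which block the processing of let-7 in embryonic cells, had 15 and 3 fragments over all 6 libraries together. Beside these medians, the median over all tested features was 0.03 and 61.4% lay above 0. Median centring moved all fold changes by -0.05.

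**Figure D5:**
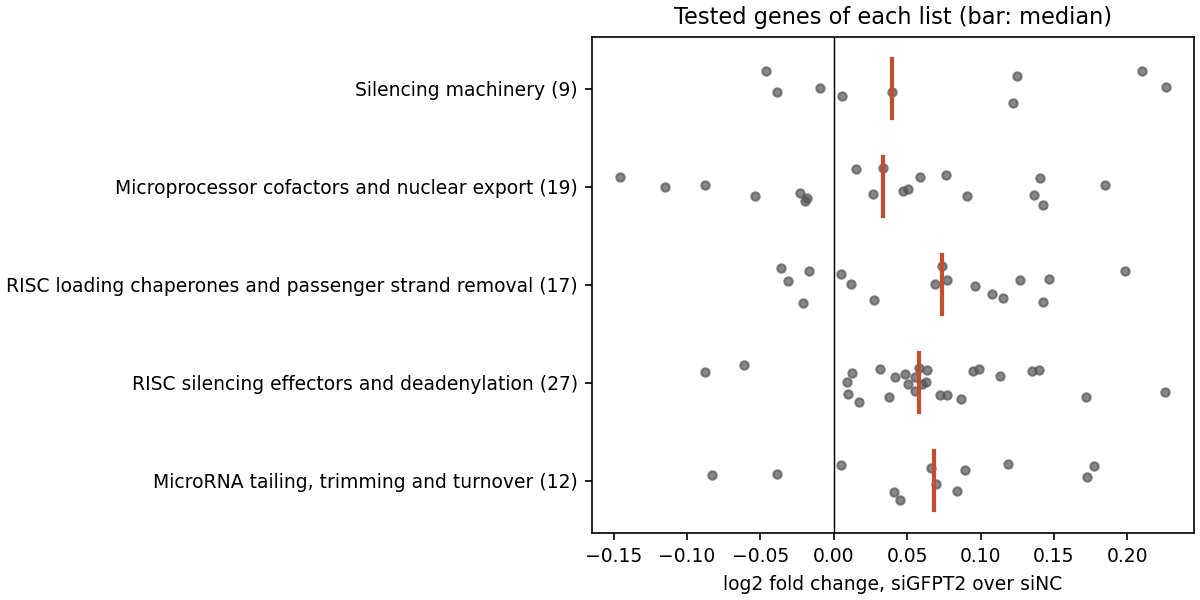
Log2 fold changes of siGFPT2 over siNC for the tested genes of each list, with the number of genes in brackets, 1 grey point per gene spread vertically for legibility and the list median as an orange bar. Medians lie between 0.03 and 0.07 and all points between -0.15 and 0.23.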

How the data were processed

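RNA was isolated with TRIzol and captured on oligo(dT) before library preparation for paired-end sequencing, per the labels' protocols. The submitters' processing notes name HISAT2, DESeq2 and featureCounts, with no versions used here; neither they nor the labels give an annotation or a strand setting. The authors deposited FPKM values, 1 table of 60960 features and 6 libraries. The siNC columns carry the descriptions of their libraries. The siGFPT2 columns were tied to theirs through the sample titles, whose ending they carry after the letters si; the descriptions are worded differently, so the siGFPT2 replicate numbers rest on the titles. Symbols came from a table of gene names, positions and exon lengths from GENCODE 29, and promoters and microRNAs from RefSeq tables.

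Fragments were recovered from the FPKM steps, with 1 depth per library and 1 length per feature, for 36980 of 36981 features above 0, within 0.0001 fragments. At the GENCODE 29 exon length 53.9% were whole; for the rest the smallest length that gave whole fragments was taken, so that part is whole by construction and a length can be too short. The PRKRA values at its GENCODE 29 length were added after seeing the data. Counting errors and fragment totals rest on this and cover counting error only.

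The groups were compared two-sided with limma 3.58.1 (R 4.3.3). Its input was log2(FPKM + 0.1) of the features that averaged 1 FPKM or more. Group was the only term, a mean-variance trend was used, and Benjamini-Hochberg adjustment covered all 12896. A fold change on this scale understates the change of low genes. Ratios are printed from plain FPKM, while log2 ratios, their spans and their differences were taken on FPKM + 0.1. The log2 ratios were compared with exact permutation tests over libraries. The fit was tested on simulated data. These did not hold the pattern of siGFPT2 replicate 2 and siNC replicate 3. Alternatives were other pseudocounts, filters, scalings and models, limma-voom on recovered fragments, and left-out libraries. The genes, lists and libraries set apart were chosen with earlier results of these data known. Genes were named by rule: the 10 genes, GFPT2, the 2 genes of each list with the smallest p, and the 3 features most like AGO2 and DICER1; others are given for counts, overlaps or low levels. In the turnover list 1 name, ZCCHC6, matched no row. The blood cell marker list is not reported here.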

Additional observations from a re-analysis of the deposited data

How the results depend on the processing

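Over 17 alternatives limma or limma-voom called 0 features and 0 of the silencing genes, with 16 to 754 features at an unadjusted p under 0.05, and the GFPT2 value stayed between -0.21 and -0.06. Of 149 values of single silencing genes 19 had the opposite sign to the value from all libraries, while XPO5 (0.05 to 0.18) and PRKRA (0.11 to 0.36) kept theirs. DROSHA was -0.047 with median centring, -0.028 with quantile normalization and -0.050 without both siGFPT2 replicate 2 and siNC replicate 3, and DGCR8 was -0.013 with median centring. Leaving out 1 library gave -0.183 to 0.138 for DROSHA, -0.0635 to 0.114 for DGCR8, -0.128 to 0.495 for DICER1, -0.123 to 0.0745 for TARBP2, -0.338 to 0.215 for AGO1, -0.357 to 0.147 for AGO2 and -0.176 to 0.299 for AGO4. The log2 ratio differences were -0.011 to 0.0672 for AGO1/AGO2, -0.00903 to 0.457 for AGO3/AGO1 and -0.0508 to 0.119 for DGCR8/DROSHA with 1 library left out. The same gave 0.046 to 0.476 for AGO3/AGO2, 0.0844 to 0.187 for AGO4/AGO1, -0.479 to -0.0309 for TARBP2/PRKRA and 0.0542 to 0.365 for DICER1/DROSHA, with no change of sign. With a minimum mean of 5 FPKM the Argonautes and PRKRA could not be fitted. The cause of these changes was not tested. With the replicate block limma called 0 features and 0 silencing genes, and 63 features had an unadjusted p under 0.05. Deviations of same-numbered libraries correlated at 0.473 for replicate 1, but at -0.719 and -0.57 for replicates 2 and 3. AGO3 and AGO4 have the fewest fragments, and the spread between libraries limits DICER1, AGO1, AGO2 and AGO4.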
